A study of Sus scrofa with 12 samples.

Results

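Untreated IPEC-J2 cells at 24 h were compared with untreated IPEC-J2 cells at 6 h. IPEC-J2 is an established porcine cell line from the small intestinal epithelium. The series holds 12 RNA sequencing libraries in 4 groups of 3: untreated cells at 6 h and at 24 h, and cells given 5 µmol/L deoxyshikonin, a plant naphthoquinone, at the same 2 times. The 6 untreated libraries are described here, over the 11720 of 32518 listed genes whose mean over those 6 libraries was at least 1 TPM (an RNA abundance corrected for gene length and scaled to the library total). The treated libraries are used for comparison, mainly to test whether a time change differed between treated and untreated cells. What the hours were counted from, and the plating density, passage and medium changes, are not given in the sources used here. Nothing in the labels says that the 3 libraries of a group came from separate cultures, and the p-values therefore measure the spread between these libraries only.

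Dividing cells load a helicase of MCM proteins on DNA in the G1 phase, copy the DNA with it, and separate the copies in mitosis under the kinase CDK1. Many genes for copying DNA are switched on by E2F transcription factors and are held down when cells become crowded or short of nutrients or growth factors. Nutrient sensing acts beside them. The transcription factor ATF4 switches on amino acid synthesis and transport genes when amino acids run low, and SREBP factors switch on cholesterol and fatty acid synthesis genes when sterols run low. Contacts between neighbouring epithelial cells are built of tight junctions (claudins, occludin, ZO proteins), adherens junctions and desmosomes.

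The cells matched their epithelial label. All 9 epithelial markers in the table (10 listed) had a mean of at least 1 TPM, and their summed level was 7499 to 7717 TPM at 6 h and 8004 to 8382 TPM at 24 h. Fibroblast markers, 2 of 7 of them with a mean of at least 1 TPM, summed to 9.53 to 9.96 TPM at 6 h and 7.83 to 8.65 TPM at 24 h. Smooth muscle markers, 1 of 4, summed to 1.24 to 2.34 and then 2.40 to 3.16 TPM, and desmin (DES) was listed at 0 throughout. Endothelial markers, 1 of 4, summed to 10.8 to 15.6 and then 9.45 to 13.9 TPM, almost wholly PECAM1, and KDR was listed at 0. The leukocyte markers, 2 of 6, summed to 273 to 281 and then 297 to 338 TPM, but 272 to 335 TPM of this was CD79A, while the defining leukocyte gene PTPRC did not exceed 0.05 TPM in any library. Whether the source of CD79A or of these other markers had a part in the time changes of other genes was not tested.

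Libraries of the same time point resembled each other closely. Pearson's r of log2(TPM + 1) across the tested genes was 0.981 to 0.987 between libraries of the same time and 0.956 to 0.964 between libraries of different times, as a description over genes that are not independent. The median absolute log2 difference was 0.0715 to 0.115 within a time and 0.263 to 0.290 between times. The first principal component held 58.5% of the variance and separated the times. TPM carries no sequencing depth, so no counting error could be given for a value.

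Most of the tested genes passed the test, and most of their changes were small. In the comparison of 24 h with 6 h, 6599 of 11720 genes (56.3%) had a limma adjusted p under 0.05. Of all tested genes, 22.1% rose (2592) and 34.2% fell (4007). The counts of list members below are to be read against these shares. The median size of a called change was 0.41 on the log2 scale, and 449 genes (3.83% of those tested) also changed by at least 1 log2 unit, 205 upward and 244 downward. Every change below is a difference of mean log2(TPM + 1), 24 h minus 6 h, a scale that shrinks the changes of low genes. The split between rises and falls depended on how the libraries were scaled: rises made up 39.3% of the calls with the deposited TPM, 53.7% after rescaling each library by the median of gene ratios, and 49.1% after quantile normalization. Median-of-ratios rescaling moved the genes' changes by a median of 0.10, and the all-gene median from -0.07 to 0.02. In all 3 scalings 2497 genes were called higher and 3038 lower, and no gene was called in opposite directions under the deposited TPM and the median of ratios. A change of less than about 0.1 therefore has no fixed sign here, and the larger changes below are read against the all-gene median of -0.07.

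**Figure D1:**
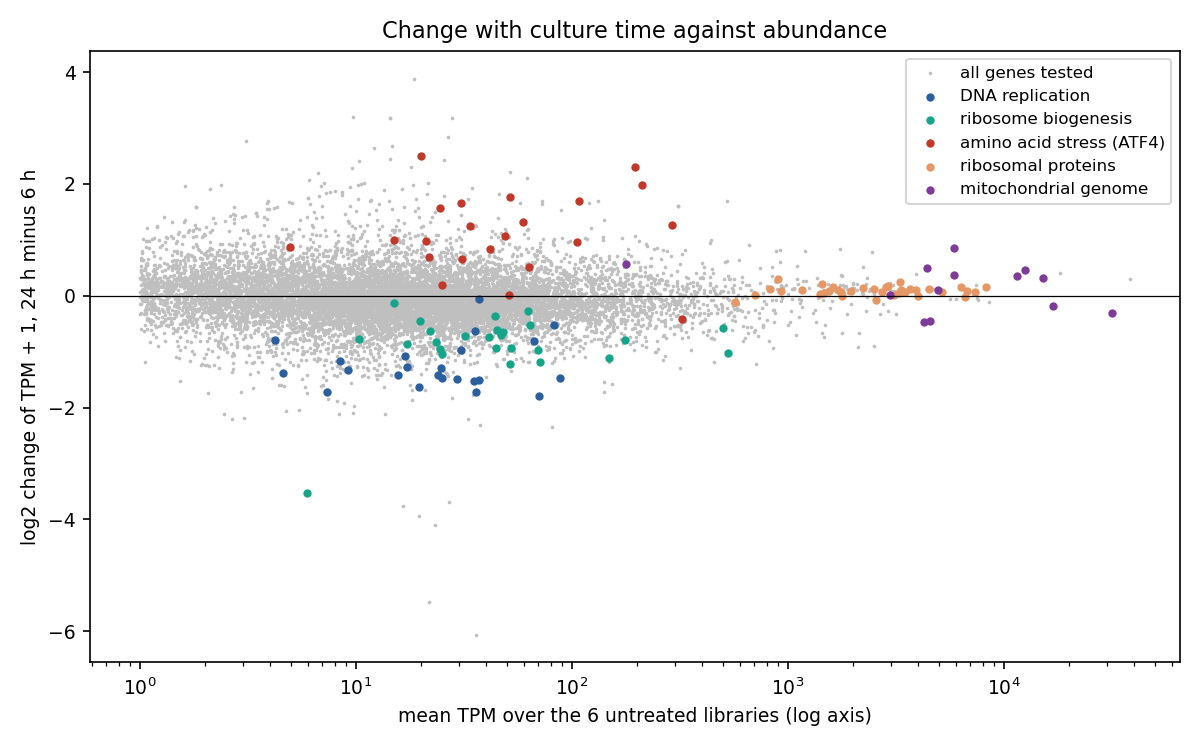
Change of log2(TPM + 1) from 6 h to 24 h in untreated cells against mean TPM over the 6 untreated libraries (log axis); each point is 1 gene, and 5 gene lists are coloured. DNA replication and ribosome biogenesis genes lie below 0, amino acid stress genes lie mostly above it, and the abundant ribosomal protein genes lie close to it.

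The 10 largest rises included PHGDH and PSAT1, of serine synthesis. Only called genes without overlap between the times could enter the 10 largest rises or falls. Of the 6599 called genes, 6556 had no overlap. A mean of at least 5 TPM over the 6 libraries was needed too. Among the rises, BEX4, NR1H3, EPAS1 and RAB7B reached it only through their 24 h libraries. Among the falls, CDC6, RMI2 and DYRK4 reached it only through their 6 h libraries. PHGDH (ENSSSCG00000006717), the first enzyme of serine synthesis, was at 5.27, 5.60 and 5.20 TPM at 6 h and 35.8, 33.9 and 34.8 TPM at 24 h. PHGDH rose by 2.50 ± 0.05 (SE, n = 3 against 3, limma adjusted p = 1.7e-06), a 6.50-fold difference of the mean TPM. PSAT1 (ENSSSCG00000005287), the next enzyme of that pathway, was at 64.5, 70.03 and 60.5 TPM at 6 h and 311, 333 and 333 TPM at 24 h and rose by 2.31 ± 0.06 (SE, n = 3 against 3, limma adjusted p = 5e-06). BEX4 (ENSSSCG00000022635) had the largest rise of a gene with a symbol under the naming rule, from 2.27, 3.86 and 3.75 TPM to 24.9, 24.4 and 29.02 TPM (a change of 2.68). The nuclear receptor NR1H3 (liver X receptor alpha) went from 3.08, 0.45 and 2.36 TPM to 9.27, 12.01 and 13.03 TPM, with uneven libraries at 6 h. EPAS1, the hypoxia-inducible factor HIF-2 alpha, was at 1.65, 1.65 and 1.88 TPM at 6 h and 11.1, 10.9 and 9.34 TPM at 24 h. SLPI, a secreted protease inhibitor of mucosal surfaces, rose by 2.10, from 21.1, 23.4 and 24.1 TPM to 101, 95.2 and 107 TPM. The other 4 of the 10 largest rises were GPT2 (mitochondrial alanine aminotransferase, 2.02), NUPR1 (a stress-induced nuclear protein, 1.98), the small GTPase RAB7B (1.97) and the tight junction gene CLDN3 (1.90).

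The 10 largest falls included MCM4, CDC6, ORC1 and POLE, genes of DNA copying. MCM4 (ENSSSCG00000006273), a subunit of the replicative helicase, was at 107, 112 and 111 TPM at 6 h and 32.8, 32.4 and 28.2 TPM at 24 h. It fell by 1.79 ± 0.06 (SE, n = 3 against 3, limma adjusted p = 7.6e-06), a 3.54-fold lower mean TPM at 24 h. CDC6, which loads that helicase, was at 11.9, 12.1 and 11.4 TPM at 6 h and 2.78, 3.13 and 2.77 TPM at 24 h, and ORC1, a subunit of the origin recognition complex, was at 32.4, 31.8 and 32.7 TPM at 6 h and 10.2, 10.03 and 8.03 TPM at 24 h. UHRF1, which carries DNA methylation through replication, fell by 1.72, the chromatin remodeler HELLS fell by 1.68, and POLE, the catalytic subunit of DNA polymerase epsilon, fell by 1.63. The recombination cofactor PSMC3IP fell by 1.86, the nucleolar protein gene LYAR fell by 1.78, RMI2, part of the BLM helicase complex, fell by 1.64, and the kinase gene DYRK4 fell by 1.62.

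**Figure D2:**
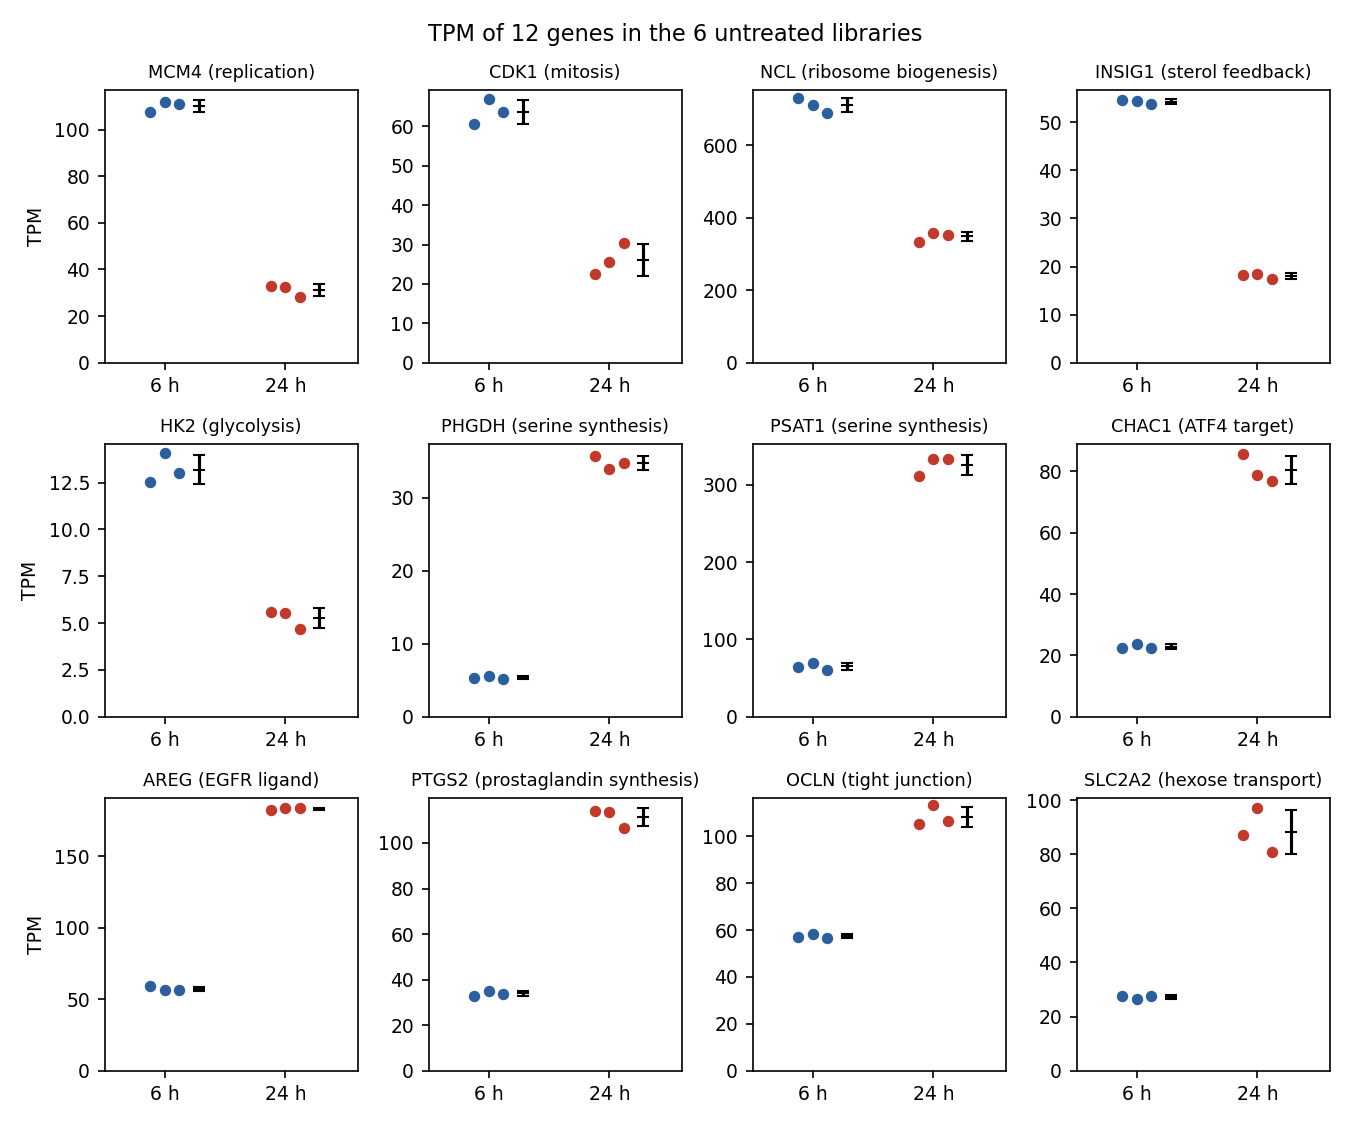
TPM of 12 genes in the 6 untreated libraries (points) with the mean and SD of each time (bars, n = 3), each panel from 0. MCM4, CDK1, NCL, INSIG1 and HK2 are lower in all 3 libraries at 24 h, and the other 7 genes are higher in all 3.

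The proliferation genes fell nearly as a block. In the DNA replication list, 22 of 23 tested genes (28 listed) fell, none rose, and the median change was -1.38 against -0.07 over all genes tested. The whole helicase was lower: MCM3 fell by 1.53, MCM2 fell by 1.51, MCM5 fell by 1.48, MCM7 fell by 1.48 and MCM6 fell by 1.30. The transcription factor gene E2F1 fell by 1.42 and cyclin E2 (CCNE2) fell by 1.38, while the nucleotide synthesis genes RRM1 and TYMS had smaller falls of 0.81 and 0.52. MCM10 had a change of -0.06 (limma adjusted p = 0.44). In the mitosis list all 21 of 21 tested genes fell, with a median of -0.96. CDK1, the mitotic kinase, was at 60.7, 66.9 and 63.6 TPM at 6 h and 22.5, 25.5 and 30.4 TPM at 24 h and fell by 1.26 ± 0.10 (SE, n = 3 against 3, limma adjusted p = 9.6e-05). CDC20, an activator of the anaphase-promoting complex, was at 126, 126 and 124 TPM at 6 h and 60.5, 58 and 54.8 TPM at 24 h, and KIF23, a cytokinesis motor, was at 65.4, 67.6 and 65.1 TPM at 6 h and 28.4, 30.9 and 29.9 TPM at 24 h. The smallest fall in the list was that of the spindle gene PRC1 (-0.49). Called falls in both lists numbered the same with each other scaling of the libraries. In bulk RNA, fewer cells in a phase and less RNA per cell cannot be told apart.

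Genes that hold the cell cycle back mostly moved the other way, by smaller amounts. Of 17 tested genes of the growth arrest and p53 list, 11 rose and 2 fell, with a median of 0.27. CDKN1A, the CDK inhibitor p21, was at 123, 122 and 127 TPM at 6 h and 189.9, 192 and 179 TPM at 24 h and rose by 0.59 ± 0.04 (SE, n = 3 against 3, limma adjusted p = 4.5e-05). Cyclin G2 (CCNG2), linked to cell cycle exit, went from 6.41, 6.48 and 5.76 TPM to 10.9, 13.8 and 11.2 TPM. The inhibitor genes CDKN2B and CDKN1B rose by 0.49 and 0.32, whereas CDKN2C, another CDK inhibitor, fell by 0.82. MDM2, a p53 target and p53 ligase, had a change of -0.22 that did not pass with median-of-ratios rescaling (-0.12, limma adjusted p = 0.052).

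Genes that build ribosomes fell, while the genes of the ribosome's own proteins moved little. Ribosome biogenesis genes, which process and assemble ribosomal RNA in the nucleolus, fell in 25 of 26 tested cases, with a median of -0.79. DKC1, the pseudouridine synthase of ribosomal RNA, was at 71.2, 72.97 and 74.9 TPM at 6 h and 31.7, 30.2 and 30.9 TPM at 24 h and fell by 1.21 ± 0.04 (SE, n = 3 against 3, limma adjusted p = 7.1e-06). NOLC1, a nucleolar chaperone, was at 98.3, 101 and 98.5 TPM at 6 h and 43.4, 42.6 and 43.3 TPM at 24 h. Nucleolin (NCL) fell by 1.03 and nucleophosmin (NPM1) fell by 0.57. The ribosomal RNA methyltransferase gene NOP2 was at 10.1, 13.3 and 11.8 TPM at 6 h and 0.17, 0 and 0.15 TPM at 24 h. NOP2 thus lay at or near 0 at 24 h, and its deposited value was also only 0.21 to 0.26 TPM in the treated libraries at 6 h, so no fold is given for it. A value at or near 0 in this table can be a failed estimate, which TPM cannot tell from a low level, and the count of 25 falls includes NOP2. Ribosomal protein genes, the subunits themselves, had a median change of 0.09. With the deposited TPM 11 of 36 tested (55 listed) rose and none fell. That count was 25 with median-of-ratios rescaling, 10 with quantile normalization (and 1 lower), and 7 when any 1 of the 6 h libraries was left out. RPL5 had the largest rise of them, from 809, 806 and 815 TPM to 945, 1006 and 1023 TPM (0.29). Together the listed ribosomal protein genes held 10.5% ± 0.105 of the TPM at 6 h and 11.2% ± 0.392 at 24 h (SD, n = 3). The 2 times did not overlap. By a two-sided exact permutation the p was 0.1, and 3 libraries against 3 allow no smaller one (0.15 after adjustment over 6 such measures).

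Sterol synthesis genes fell along nearly the whole pathway. In the cholesterol list 19 of 22 tested genes fell and none rose, with a median of -0.61. INSIG1, which retains the SREBP activator in the endoplasmic reticulum and is itself an SREBP target, was at 54.7, 54.5 and 53.9 TPM at 6 h and 18.3, 18.5 and 17.3 TPM at 24 h and fell by 1.54 ± 0.04 (SE, n = 3 against 3, limma adjusted p = 5.8e-06). HMGCS1, the enzyme that makes HMG-CoA, was at 151, 144 and 139.6 TPM at 6 h and 67.7, 77.9 and 70.7 TPM at 24 h, and STARD4, a sterol carrier, was at 17.2, 16.9 and 16.9 TPM at 6 h and 7.87, 9.70 and 8.31 TPM at 24 h. Further down the pathway IDI1 fell by 0.86, the squalene synthase gene FDFT1 fell by 0.77, LSS fell by 0.77 and DHCR7 fell by 0.73. SREBF2, the gene of the controlling factor, had a change of 0.00 (limma adjusted p = 0.95). In fatty acid synthesis 12 of 14 fell, with a median of -0.41. ACLY, which supplies cytosolic acetyl-CoA, was at 91.6, 94.8 and 92.2 TPM at 6 h and 51.01, 49.3 and 42.1 TPM at 24 h and fell by 0.96 ± 0.07 (SE, n = 3 against 3, limma adjusted p = 6.9e-05). The desaturase gene FADS2 was at 125, 133 and 132 TPM at 6 h and 72.5, 68.6 and 60.7 TPM at 24 h and FADS1 at 90.6, 96.2 and 90.3 TPM at 6 h and 57.5, 56.95 and 53.3 TPM at 24 h. FASN, fatty acid synthase, fell by 0.56.

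Glycolytic genes also tended downward, unevenly. Of 15 tested genes 10 fell and 1 rose, with a median of -0.33. Hexokinase 2 (HK2), which traps glucose in the cell, was at 12.5, 14.1 and 13.01 TPM at 6 h and 5.58, 5.55 and 4.67 TPM at 24 h and fell by 1.18 ± 0.08 (SE, n = 3 against 3, limma adjusted p = 4.4e-05). ALDOC fell by 0.66, PGAM1 fell by 0.56, PKM fell by 0.52 and LDHA fell by 0.48. GAPDH, often used as a reference gene, was at 7422, 7868 and 8045 TPM at 6 h and 7974, 7196 and 6926 TPM at 24 h. Its times overlapped, and its change of -0.08 did not pass (limma adjusted p = 0.27), but without replicate 1 at 24 h the change was -0.14 and passed (limma adjusted p = 0.04). The exception was PFKP, a phosphofructokinase, which rose by 0.18. No glycolytic gene was called higher when any 1 of the 6 h libraries, or replicate 1 or 2 at 24 h, was left out. The hypoxia list shares some of this biology and was mixed: 10 of 18 tested genes fell and 4 rose with the deposited TPM, against 7 and 5 with median-of-ratios rescaling. ANKRD37 fell by 0.85 and the pyruvate dehydrogenase kinase gene PDK1 fell by 0.56. DDIT4, an inhibitor of mTOR signalling that ATF4 also induces, was at 122, 124 and 122 TPM at 6 h and 200.5, 206 and 194 TPM at 24 h, and the vascular growth factor gene VEGFA rose by 0.27.

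Subunits of the respiratory chain are encoded in the mitochondrial and the nuclear genome. The 13 mitochondrially encoded genes included 6 that rose and 4 that fell with the deposited TPM, but 3 and 3 with quantile normalization. CYTB, the cytochrome b of complex III, was at 4161, 4221 and 4193 TPM at 6 h and 7794, 8101 and 6924 TPM at 24 h and rose by 0.86 ± 0.06 (SE, n = 3 against 3, limma adjusted p = 4.1e-05). COX1, a complex IV subunit, was at 34299.9, 35986 and 35212 TPM at 6 h and 28085, 29755 and 27033 TPM at 24 h and had a change of -0.31 that did not pass after quantile normalization (-0.21, limma adjusted p = 0.072). ND5 fell by 0.46 and ND4 rose by 0.49. ATP6 had a change of 0.46, but of -0.11 after quantile normalization. ND4L was at 9859, 9863 and 10121 TPM at 6 h and 14990.01, 15204 and 8912 TPM at 24 h, so that replicate 3 at 24 h lay below all 6 h libraries. Its change was 0.35 (limma adjusted p = 0.17) and 0.60 without that library (limma adjusted p = 6.2e-05). As a share of all TPM the mitochondrially encoded genes held 11.8% ± 0.126 at 6 h and 12.4% ± 0.835 at 24 h (SD, n = 3), and the times overlapped. Nuclear genes of the chain fell in 21 of 29 tested cases and none rose, with a median of -0.22. With median-of-ratios rescaling 13 were lower and the median was -0.12. Cytochrome c (CYCS) was at 131, 128 and 129 TPM at 6 h and 74.3, 76.5 and 78.8 TPM at 24 h, and the ATP synthase alpha subunit gene ATP5F1A fell by 0.53.

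Amino acid stress genes rose more than any other list examined, by their median. ATF4 targets rose in 20 of 22 tested cases, 1 fell, and the median was 1.03. PSPH, the last enzyme of serine synthesis after PHGDH and PSAT1, rose by 1.58. The transsulfuration genes CBS and CTH, which lead to cysteine, rose by 1.66 and 1.31. ASNS, asparagine synthetase, rose by 1.26, PCK2, the mitochondrial PEP carboxykinase, rose by 1.70, and CHAC1, which degrades glutathione, was at 22.4, 23.8 and 22.3 TPM at 6 h and 85.6, 78.8 and 76.99 TPM at 24 h. NUPR1 was at 81.3, 88.9 and 84.8 TPM at 6 h and 337, 327 and 349 TPM at 24 h. The regulators DDIT3 (CHOP), TRIB3, ATF3 and SESN2 rose by 0.84, 0.99, 1.07 and 1.24. Among the transporters, the cystine carrier SLC7A11 was at 9.22, 10.2 and 9.78 TPM at 6 h and 20.9, 22.7 and 17.7 TPM at 24 h and its partner SLC3A2 rose by 0.96, while the neutral amino acid carrier SLC38A2 fell by 0.42 and SLC7A5, which carries leucine, had a change of 0.00 (limma adjusted p = 0.96). Leaving out any 1 library left 20 called rises in this list.

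Chaperone genes of the secretory pathway mostly fell. In the unfolded protein response list 10 of 17 tested genes fell and 4 rose, with a median of -0.22. MANF, a secreted stress protein of the endoplasmic reticulum, was at 253, 249 and 254 TPM at 6 h and 137, 143 and 153 TPM at 24 h. CRELD2 fell by 0.79, calreticulin (CALR) fell by 0.53 and the chaperone BiP (HSPA5) fell by 0.25. The 4 that rose were DNAJB9 (0.79), HERPUD1 (0.71), XBP1 (0.61) and SEL1L (0.30); DNAJB9, HERPUD1 and SEL1L act in the disposal of misfolded proteins, and XBP1 is a transcription factor of this response. Heat shock proteins fell in 10 of 14 tested cases and rose in 4, with a median of -0.62. HSP90AA1 was at 923, 897 and 896 TPM at 6 h and 532, 551 and 559 TPM at 24 h and fell by 0.72 ± 0.03 (SE, n = 3 against 3, limma adjusted p = 1.1e-05). The mitochondrial chaperonin HSPD1 was at 809, 801 and 767 TPM at 6 h and 428, 472 and 459 TPM at 24 h, and HSPA8, the constitutive HSP70, fell by 0.67. HSPB8 rose by 0.67 and its partner BAG3 rose by 0.21. Antioxidant genes of the NRF2 list fell in 11 of 19 tested cases and rose in 2, with a median of -0.26, and 7 were lower with median-of-ratios rescaling. Thioredoxin reductase (TXNRD1) was at 68.7, 67.9 and 67.2 TPM at 6 h and 33.5, 33.6 and 34.1 TPM at 24 h and peroxiredoxin 1 (PRDX1) was at 342, 343 and 345 TPM at 6 h and 194, 204 and 209 TPM at 24 h. HMOX1, heme oxygenase, had a change of -0.18 (limma adjusted p = 0.14).

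Most lysosome and autophagy genes tested rose. In the lysosome and autophagy list 15 of 24 tested genes rose and 1 fell, with a median of 0.23. GABARAPL1, an autophagosome protein, was at 9.62, 11.4 and 10.5 TPM at 6 h and 19.5, 21.5 and 19.4 TPM at 24 h, and the autophagy kinase gene ULK1 was at 10.6, 11.3 and 10.3 TPM at 6 h and 18.2, 17.7 and 15.6 TPM at 24 h. The cargo receptor SQSTM1 (p62) was at 127, 122 and 122 TPM at 6 h and 187, 188 and 191 TPM at 24 h, and the protease genes CTSB and CTSD rose by 0.41 and 0.42. The FOXO list, genes that rise when insulin or growth factor signalling is low, had 10 rises among 11 tested (16 listed), no falls, and a median of 0.73. YPEL3 was at 17.2, 16.2 and 15.1 TPM at 6 h and 42.3, 44.6 and 49.5 TPM at 24 h and rose by 1.44 ± 0.07 (SE, n = 3 against 3, limma adjusted p = 1.6e-05). PIK3IP1, an inhibitor of PI3 kinase, was at 10.5, 9.63 and 9.63 TPM at 6 h and 20, 24.3 and 19.97 TPM at 24 h, and ARRDC4 was at 3.79, 3.70 and 3.59 TPM at 6 h and 8.02, 9.27 and 8.35 TPM at 24 h. TXNIP, which limits glucose uptake, rose by 0.92, and IRS2, an insulin receptor substrate, rose by 0.67.

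**Figure D3:**
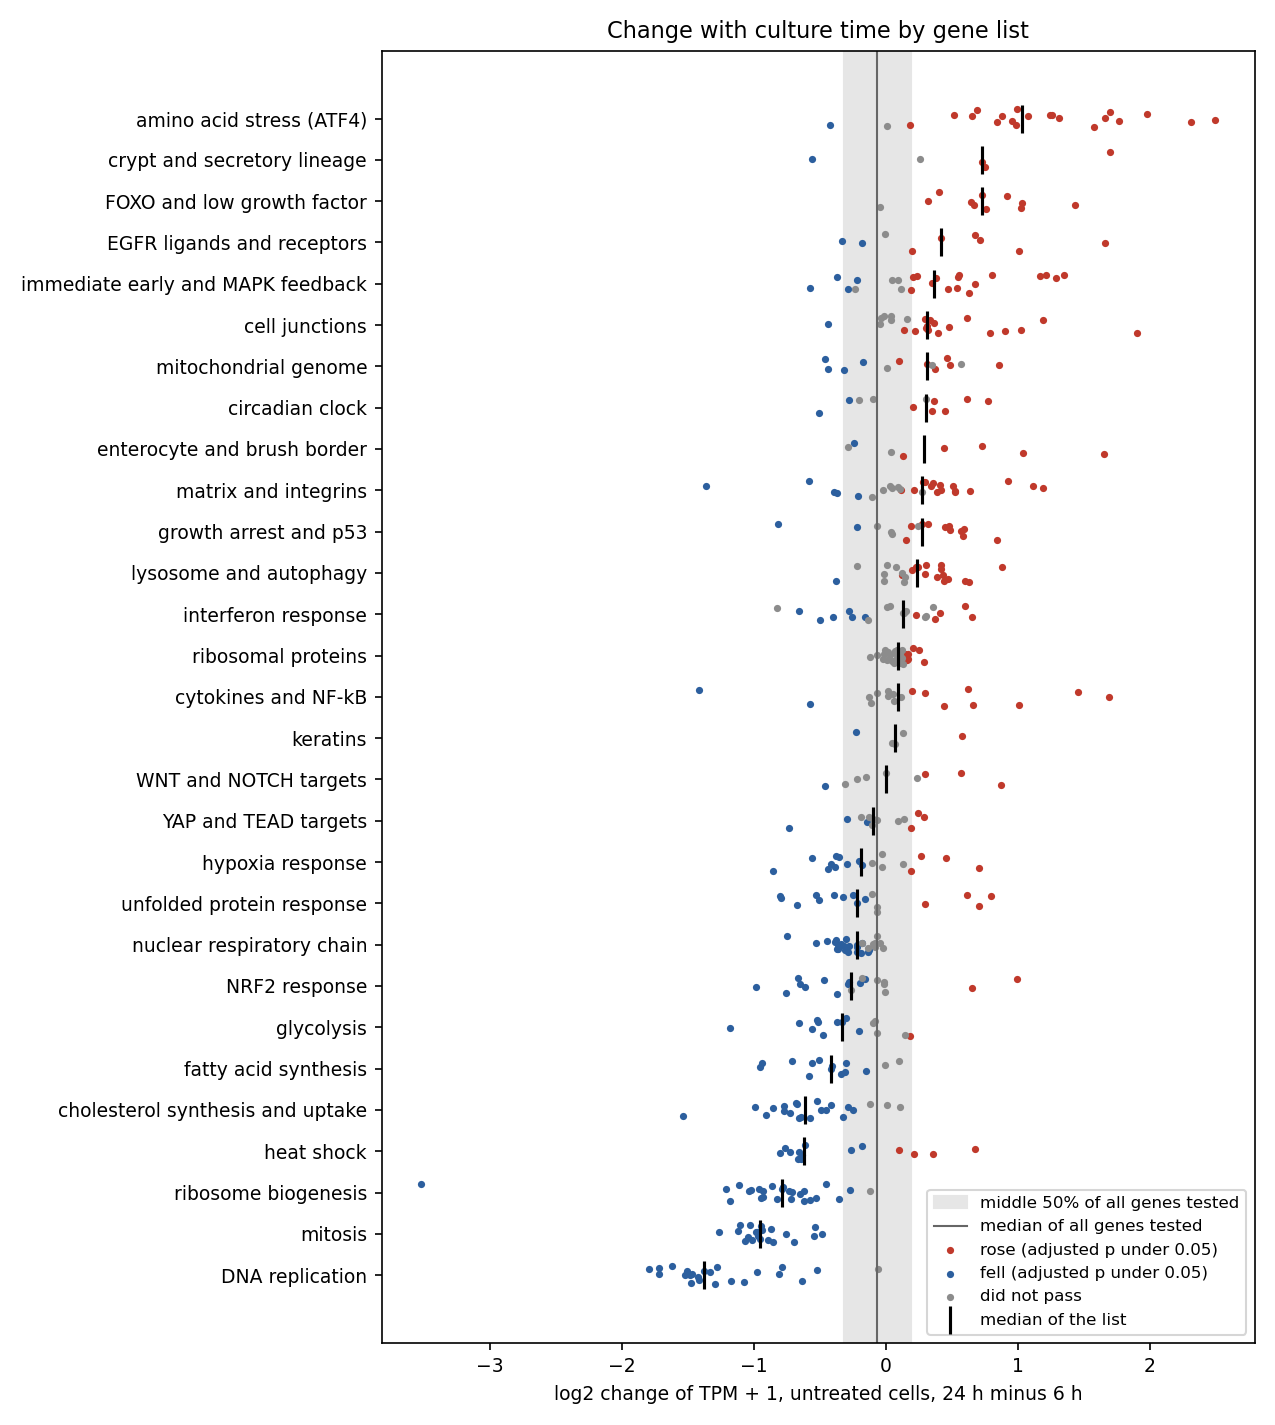
Change of log2(TPM + 1) from 6 h to 24 h for the tested members of 29 gene lists, with the list median (black bar) and the median and middle 50% of all 11720 tested genes (grey). Replication, mitosis and ribosome biogenesis lie lowest, with medians of -1.38, -0.96 and -0.79, and the ATF4 list highest, at 1.03; the point near -3.5 is NOP2.

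Most of the junction genes tested were higher at 24 h. Of 23 tested junction genes 16 rose and 1 fell, with a median of 0.31. In the tight junction, CLDN3 was at 7.89, 4.24 and 6.89 TPM at 6 h and 29.3, 19.5 and 29.97 TPM at 24 h, and its libraries varied within a time. CLDN4 was at 639, 642 and 659 TPM at 6 h and 1133, 1112 and 1115 TPM at 24 h and rose by 0.79 ± 0.03 (SE, n = 3 against 3, limma adjusted p = 7.6e-06). Occludin (OCLN) was at 57.2, 58.2 and 56.7 TPM at 6 h and 105, 113 and 107 TPM at 24 h, and the scaffold ZO-3 (TJP3) was at 39.6, 43.2 and 40.5 TPM at 6 h and 86.8, 87.02 and 80.4 TPM at 24 h. TJP1 (ZO-1) rose by 0.32. Among desmosomal genes, DSC2 was at 2.41, 2.36 and 2.41 TPM at 6 h and 6.74, 6.95 and 6.51 TPM at 24 h and DSG2 rose by 0.31, whereas DSP had a change of -0.05 (limma adjusted p = 0.57). E-cadherin (CDH1) rose by 0.13.

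Differentiation genes of the gut were mostly too low to test, and those above the limit rose in part. Of 27 enterocyte and brush border genes listed, 23 were in the table and 8 passed the limit of 1 TPM, of which 5 rose and 1 fell. SLC2A2, the hexose transporter GLUT2, was at 27.6, 26.4 and 27.8 TPM at 6 h and 87.01, 97.1 and 80.8 TPM at 24 h and rose by 1.66 ± 0.07 (SE, n = 3 against 3, limma adjusted p = 9.3e-06). The microvillar adhesion genes CDHR5 and USH1C were at 0.48, 0.43 and 0.35 TPM at 6 h and 2.06, 1.85 and 1.83 TPM at 24 h for CDHR5 and 4.88, 4.28 and 4.25 TPM at 6 h and 8.15, 7.83 and 8.15 TPM at 24 h for USH1C. CDHR5 passed the limit of 1 TPM only through its 24 h libraries, and its rise is 1 of the 5. VIL1, the actin bundler villin, had a change of 0.04 (limma adjusted p = 0.75). The count of rises was 3 without the first library at 24 h and 3 with quantile normalization. In the crypt and secretory list 5 of 20 were tested. MUC13, a membrane mucin, was at 7.04, 5.69 and 5.90 TPM at 6 h and 21.5, 24.1 and 21.5 TPM at 24 h. SOX9, a factor of crypt progenitors and Paneth cells, was at 21.3, 21.96 and 20.98 TPM at 6 h and 36.5, 38.4 and 35.1 TPM at 24 h, and AGR2, a disulfide isomerase of mucus-making cells, was at 18.4, 18.6 and 17.8 TPM at 6 h and 28.1, 31.4 and 33.5 TPM at 24 h. LYZ, lysozyme, fell by 0.56. Of 5 keratin genes tested 1 rose and 1 fell with the deposited TPM, against 3 and 0 with median-of-ratios rescaling. KRT18 had a change of -0.22, which did not pass with median-of-ratios rescaling (-0.12, limma adjusted p = 0.067), and KRT80 rose by 0.57.

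Matrix and adhesion genes moved in both directions, more of them upward. Of 28 tested 16 rose and 5 fell, with a median of 0.28. The epithelial integrin gene ITGB6 was at 28.4, 30.9 and 28.7 TPM at 6 h and 61.1, 70.3 and 63.4 TPM at 24 h, and the matrix protease gene MMP7, a product of gut epithelium, was at 37.7, 38.9 and 36.7 TPM at 6 h and 74.7, 93.2 and 95.5 TPM at 24 h and rose by 1.19 ± 0.09 (SE, n = 3 against 3, limma adjusted p = 8e-05). The laminin-332 chain genes LAMB3 and LAMA3 rose by 0.64 and 0.36. The fibronectin receptor subunits ITGA5 and ITGB1 fell by 0.58 and 0.37, while fibronectin itself (FN1) rose by 0.42. COL4A1 had a change of 0.27 with very uneven libraries (limma adjusted p = 0.85).

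Genes of the EGFR family and immediate early genes rose more often than they fell. In the EGFR list 6 of 9 tested genes rose and 2 fell. Amphiregulin (AREG), an EGFR ligand, was at 59.1, 56.1 and 56.5 TPM at 6 h and 182, 183 and 184 TPM at 24 h and rose by 1.66 ± 0.04 (SE, n = 3 against 3, limma adjusted p = 2e-06), a 3.20-fold difference. Epiregulin (EREG), another ligand, was at 48.2, 50.04 and 47.4 TPM at 6 h and 101, 106 and 89.6 TPM at 24 h, and ERRFI1, a feedback inhibitor of EGFR, was at 36.5, 30.3 and 31.6 TPM at 6 h and 58.5, 55.2 and 49.9 TPM at 24 h. The ligand gene TGFA fell by 0.33, and HBEGF had a change of 0.00 (limma adjusted p = 0.94). Among immediate early and MAPK feedback genes 16 of 24 tested rose and 4 fell, with a median of 0.36. EGR1 was at 6.19, 6.44 and 7.23 TPM at 6 h and 18.99, 19.3 and 16.9 TPM at 24 h, NR4A1 at 4.87, 5 and 5.06 TPM at 6 h and 14.6, 13.6 and 12.8 TPM at 24 h, and KLF4, a factor of epithelial differentiation, at 5.98, 5.76 and 5.06 TPM at 6 h and 14.8, 14.5 and 13.4 TPM at 24 h. FOS rose by 1.16 and the MAPK phosphatase gene DUSP1 rose by 0.80, but FOSL1, a late partner of the AP-1 complex, fell by 0.57. YAP and TEAD targets stayed near the all-gene median: 3 rose and 3 fell among 13 tested, and the list median of -0.10 was 0.01 with median-of-ratios rescaling.

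Inflammatory genes split. In the cytokine and NF-kB list 8 of 18 tested genes rose and 2 fell. PTGS2, the inducible cyclooxygenase, was at 32.8, 35.1 and 33.8 TPM at 6 h and 114, 113 and 107 TPM at 24 h and rose by 1.69 ± 0.05 (SE, n = 3 against 3, limma adjusted p = 5.2e-06). NFKBIZ, an atypical I-kappa-B, was at 5.96, 5.05 and 6.04 TPM at 6 h and 16.3, 18.8 and 16.8 TPM at 24 h, and IL6 rose by 1.01. IL1A went the other way, at 12.1, 11.7 and 12.2 TPM at 6 h and 3.92, 3.83 and 3.85 TPM at 24 h, and CXCL2 fell by 0.58. The inhibitor NFKBIA had a change of 0.06 (limma adjusted p = 0.5). Interferon response genes held no common direction, with 5 rises and 6 falls among 21 tested, and 7 and 3 with median-of-ratios rescaling. The 5 and 6 are near the shares over all genes tested, of which 22.1% rose and 34.2% fell. IRF7 was at 11.5, 11.9 and 12.03 TPM at 6 h and 19.9, 16.9 and 18.4 TPM at 24 h, and PSMB9, an immunoproteasome subunit gene, was at 2.43, 1.52 and 1.53 TPM at 6 h and 0.64, 0.91 and 0.76 TPM at 24 h. PSMB9 passed the limit of 1 TPM only through its 6 h libraries. ISG15, a ubiquitin-like modifier, fell by 0.40.

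Clock genes were read at only these 2 times. Of 11 tested 6 rose and 2 fell with the deposited TPM. NFIL3, a repressor in the clock, was at 25.2, 26.4 and 25.7 TPM at 6 h and 43.3, 44.9 and 46.4 TPM at 24 h, TEF at 2.59, 2.64 and 2.70 TPM at 6 h and 4.77, 4.27 and 4.74 TPM at 24 h, and CRY1, a core repressor, at 9, 9.39 and 8.64 TPM at 6 h and 5.85, 6.27 and 5.95 TPM at 24 h. The core activator BMAL1 had a change of -0.20 (limma adjusted p = 0.19). In the WNT and NOTCH list 3 of 9 tested rose: the receptor gene NOTCH3 was at 3.88, 4.20 and 4.12 TPM at 6 h and 9.36, 9.15 and 6.52 TPM at 24 h, TCF7 rose by 0.57 and HES1 rose by 0.30. RNF43 had a change of -0.46 that passed with the deposited TPM and quantile normalization but not with the median of ratios (limma adjusted p = 0.061).

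The share of the most abundant transcripts was higher in all 3 libraries at 24 h than in any at 6 h. In each library the 10 top genes by TPM were summed, and they held 16.2% ± 0.123 of the TPM at 6 h and 17.7% ± 0.35 at 24 h (SD, n = 3, exact two-sided permutation p = 0.1, 0.15 adjusted). S100A6, a calcium-binding protein gene, was at 35151, 33708 and 35039.7 TPM at 6 h and 41387, 41076 and 44896 TPM at 24 h and had a change of 0.29, which after quantile normalization was 0.21 (limma adjusted p = 0.072). RPLP1, of the ribosomal stalk, was at 7842, 7696 and 7843 TPM at 6 h and 8544, 8571 and 9026 TPM at 24 h. ANXA2, a membrane-binding annexin gene, had a change of -0.11 (limma adjusted p = 0.019) that became -0.01 with median-of-ratios rescaling and did not pass when any 1 of the 6 h libraries was left out. TMSB10, an actin-binding thymosin, was at 7695, 7519.6 and 7659 TPM at 6 h and 7588, 6824 and 7889 TPM at 24 h, and its times overlapped. The gene without a symbol ENSSSCG00000004489 was at 15377, 15777 and 15788 TPM at 6 h and 20134, 20645 and 21260.1 TPM at 24 h. At the other end, 11585 ± 12.7 genes reached 1 TPM at 6 h and 11690 ± 25.4 at 24 h (SD, n = 3), a difference of 105 genes that was 191 with median-of-ratios rescaling. Just below the limit for testing, 121 genes had a mean of 0.9 to 1 TPM and a median change of 0.06, and just above it 101 genes had a mean of 1 to 1.1 TPM and a median change of 0.15.

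Treated cells from 6 h to 24 h gave a different course for many of these genes. The treated time change was fitted over the same 11720 genes, in a fit of all 12 libraries, and shares no library with the untreated one. In treated cells 8804 genes (75.1%) passed, and the difference between the time changes itself passed for 7409 genes (63.2%). Of those 7409, 71.8% were more positive in treated cells. The share was 52.3% of the 7158 genes called with median-of-ratios rescaling and 51.4% of the 7027 called with quantile normalization. The 3830 genes that were called in the same direction in both made up 58.0% of the untreated calls and 43.5% of the treated calls. Of the 449 untreated genes with a change of at least 1, 327 were called in the same direction in treated cells, 38 in the opposite one and 84 in neither. For 305 of the 449 the difference was called, beside the 63.2% of all genes. These 449 were chosen by their untreated change, which is subtracted in that difference.

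The all-gene median time change was -0.07 in untreated and 0.17 in treated cells, and the list medians are read against those. The difference was called for 63.2% of all genes tested, and the list counts are read against that share. Of the lists for replication and mitosis, mitosis had the closer time changes. Its median was -0.96 in untreated and -1.11 in treated cells. The difference was called for 7 of 21 genes, 6 of them more negative in treated cells. With median-of-ratios rescaling 9 were called and with quantile normalization 10, all more negative in treated cells. The median difference in this list was -0.05 with the deposited TPM, -0.28 with median-of-ratios rescaling and -0.41 with quantile normalization. Over all genes tested these medians were 0.25, 0.04 and 0.02. With the deposited TPM CDK1 changed by -1.26 in untreated and -1.26 in treated cells, a difference of 0.01 ± 0.23 (SE, limma adjusted p = 0.98). DNA replication had medians of -1.38 and -0.48, and the difference was called for 20 of 23, all more positive in treated cells (17 and 16 with those scalings). MCM4 shows the levels behind this: the untreated mean went from 110.1 ± 2.45 to 31.1 ± 2.55 TPM, whereas the treated mean was 16.1 ± 1.79 TPM at 6 h and 16.1 ± 2.58 TPM at 24 h (SD, n = 3). The treated libraries at 6 h (14.4 to 17.9 TPM) lay below the untreated libraries at 24 h (28.2 to 32.8 TPM), a difference that was not tested. Ribosome biogenesis had medians of -0.79 and 0.00, with the difference called for 22 of 26 (20 and 21 with those scalings).

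Amino acid stress genes had a more positive time change in untreated than in treated cells. The list medians were 1.03 in untreated and -0.20 in treated cells. The difference was called for 21 of 22 genes, against 63.2% of all genes, and for 21 also with each of those scalings. PSAT1 was at 103, 102 and 101 TPM at 6 h and 123, 112 and 98.8 TPM at 24 h in treated cells, a change of 0.12 against 2.31 in untreated cells. SLC7A11 had changes of 0.99 and -3.70, from treated levels of 182, 183 and 177 TPM at 6 h to 9.95, 14.3 and 15.4 TPM at 24 h. EPAS1 rose in untreated cells and fell by 1.40 in treated cells, where it stood at 15.8, 14.1 and 14.1 TPM at 6 h and at 4.82, 4.79 and 5.23 TPM at 24 h. Heat shock genes fell in 10 of 14 untreated and 13 treated cases, with medians of -0.62 and -2.07. The difference was called for all 14 tested, or for 13 with median-of-ratios rescaling. In treated cells HSPA8, of this list, was at 9435, 11064 and 8748 TPM at 6 h and 1539, 1535 and 1517 TPM at 24 h. The untreated HSPA8 values were 2171, 2193 and 2187 TPM at 6 h and 1342, 1403 and 1371 TPM at 24 h. Treated and untreated levels at the same time were not tested against each other. Junction genes rose in 16 of 23 untreated and 19 treated cases, with medians of 0.31 and 0.72 and the difference called for 15 of 23, near the 63.2% of all genes. Of those, 12 were more positive and 3 more negative in treated cells, against 9 and 5 with median-of-ratios rescaling, where the median difference was 0.12 in place of 0.36. Fatty acid synthesis genes had medians of -0.41 and 0.62, and FADS2 changed by -0.94 in untreated and by 0.85 in treated cells. The FADS2 mean went from 129.8 ± 4.60 to 67.3 ± 6.01 TPM in untreated cells. In treated cells the FADS2 mean was 43.2 ± 2.15 TPM at 6 h and 78.8 ± 9.49 TPM at 24 h (SD, n = 3). AREG rose in both, by 1.66 and 1.52, with a difference of -0.14 ± 0.05 (SE, limma adjusted p = 0.039).

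**Figure D4:**
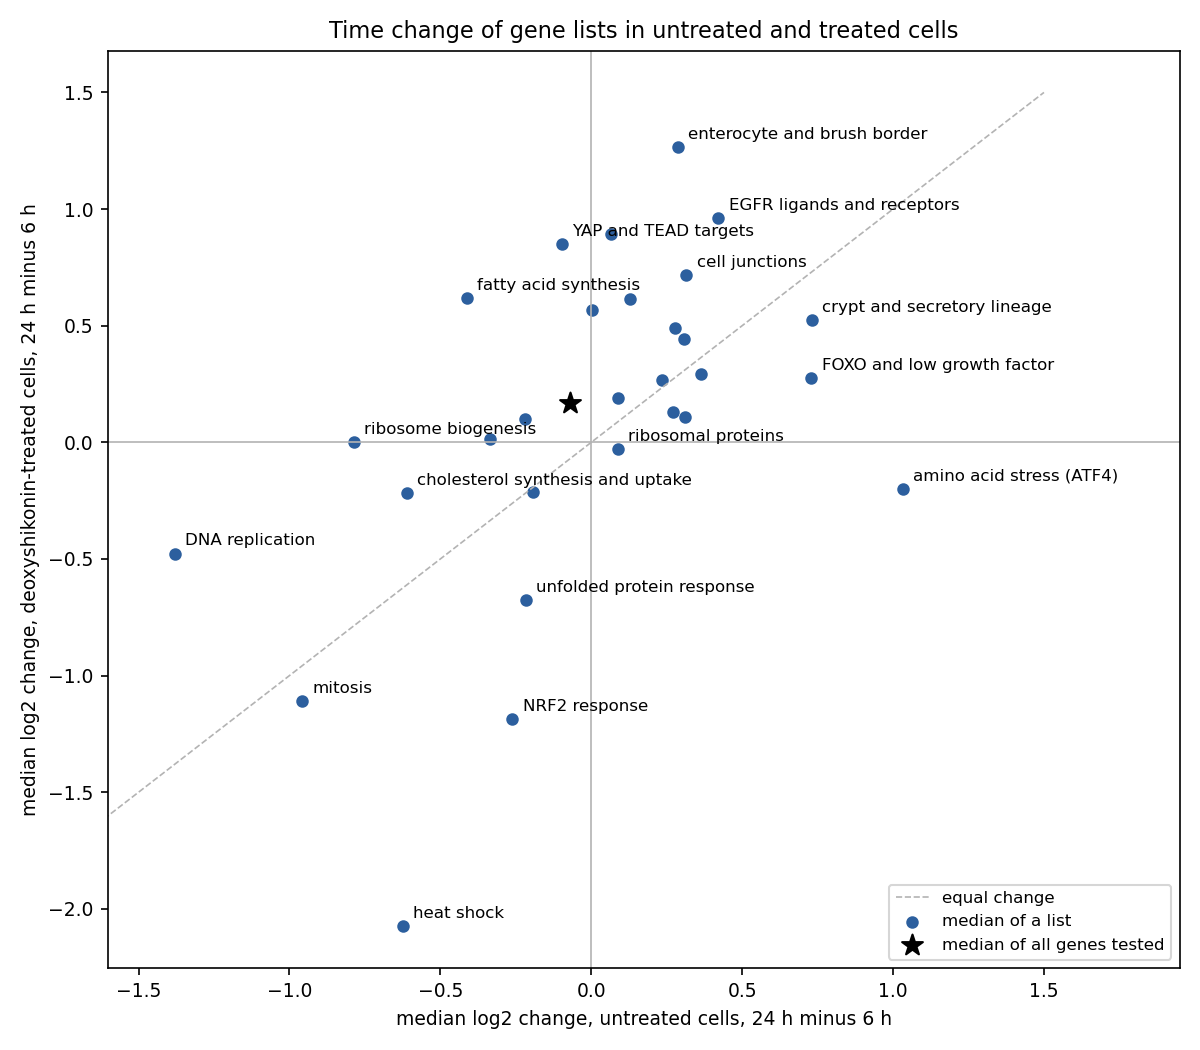
Median change of log2(TPM + 1) from 6 h to 24 h of each gene list in untreated cells (horizontal) and in deoxyshikonin-treated cells (vertical); the dashed line marks equal change and the star the medians of all genes tested. With the deposited TPM shown here, mitosis lies close to the line, the ATF4 list far to the right of it, and the heat shock list far below it.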

How the data were processed

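RNA sequencing libraries from untreated and deoxyshikonin-treated IPEC-J2 cells, 3 per group, were analysed from a single table. The authors deposited TPM for 32518 gene identifiers. The submitters' processing notes name fastp, HISAT and RSEM; the genome build and annotation are not given in the sources used here, so no coordinates or sequences are printed. Depth is unknown. Symbols from a table of gene names matched 15029 identifiers, and 9634 of the 11720 genes tested.

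Values were analysed as log2(TPM + 1) for genes with a mean of at least 1 TPM over the 6 untreated libraries. The time change was tested with limma 3.58.1 in R 4.3.3 (lmFit, and eBayes with a trend) on those 6 libraries (4 residual degrees of freedom), with Benjamini-Hochberg adjustment over all tested genes and a threshold of 0.05. The difference between treated and untreated time changes came from 1 fit of 12 libraries. Library shares were compared by exact permutation. The procedure was tested on simulated data.

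Named genes were up to 3 with the largest change per list among those that passed without overlap between times. The 10 largest rises and falls came from genes that also passed without overlap, with a symbol, a mean of at least 5 TPM and no library at 0. A mean over the 6 libraries can reach a limit through 1 time alone. The 10 most abundant genes of any untreated library were named too. Other list members are named as examples, chosen with their values seen. A few named by the rule are not reported here. The comparison, the 29 lists and the tests were chosen with earlier results of these data known. Alternatives were a pseudocount of 0.1, other filters, quantile and median-of-ratios scaling, a replicate block, no variance trend, a minimum change of 1, a fit without unstable genes, a fit of all 12 libraries, and leaving out each library.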

Additional observations from a re-analysis of the deposited data

Results flagged for a closer look

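The time change from 6 h to 24 h differed between treated and untreated cells for 7409 genes, 63.2% of those tested. This is by the test of the difference itself (limma, adjusted p under 0.05). It also differed for 16 of the 20 genes with the largest untreated rises and falls. Those 20 were chosen by their untreated change, which is subtracted in the difference. That choice alone favours negative differences among the rises and positive ones among the falls. Values are treated minus untreated, on the log2(TPM + 1) scale. Among the genes that rose in untreated cells the difference was -2.02 for BEX4, -1.20 for PHGDH, -2.19 for PSAT1, -0.54 for SLPI, -3.47 for EPAS1, -1.53 for GPT2 and -1.44 for NUPR1. Among those that fell it was 1.78 for MCM4, 1.34 for LYAR, 1.40 for UHRF1, 0.97 for CDC6, 2.05 for HELLS, 1.37 for RMI2, 0.57 for POLE and 0.94 for DYRK4. PSMC3IP fell further in treated cells, with a difference of -0.83, and all 3 of its treated libraries at 24 h were listed at 0. The difference for POLE did not pass with median-of-ratios rescaling (0.36, limma adjusted p = 0.058) or quantile normalization (0.23, limma adjusted p = 0.21). For NR1H3, RAB7B, CLDN3 and ORC1 the difference did not pass with the deposited TPM, and with both other scalings it did for NR1H3, RAB7B and ORC1.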

How the results depend on the processing

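TPM sets every library to one total, so small changes have no fixed sign, and depth, which limits the lowest genes, is unknown. With 3 libraries a side the exact tests cannot pass the threshold. Requiring a change of at least 1 left 449 genes for the time change and 1480 for its difference from treated cells. Under the other alternatives the time change was called for 5653 (mean of at least 5 TPM, fewer genes tested) to 6726 genes (all 12 libraries in the fit), and for 5645 to 6475 genes when 1 library was left out; the difference was called for 6988 to 7375 genes when 1 library was left out. Leaving out 1 library moved the 24 h minus 6 h difference in the share of the 10 most abundant genes between 1.28 and 1.63 percentage points, in genes above 0 TPM between 56 and 233.7, in genes of at least 1 TPM between 97.7 and 119.7, in genes of at least 10 TPM between -231 and -135, in the mitochondrially encoded share between 0.17 and 1.00, and in the ribosomal protein share between 0.47 and 0.84. The number of genes of at least 10 TPM had a 24 h minus 6 h difference of -186.7 as deposited, but of 39.7 with median-of-ratios rescaling (exact p = 0.2), and ATP6 had a change of -0.11 after quantile normalization (limma adjusted p = 0.088). The cause of either was not tested. The same replicate numbers occur at both times, but same-numbered libraries did not deviate together (correlations of -0.003, -0.12 and -0.04), so the numbers were not taken to pair the libraries; with the replicate block 6290 genes were called for the time change, 6088 of them shared with the fit without the block, and 7306 for the difference. Of the 111 named genes, median-of-ratios rescaling took the calls of 3, quantile normalization those of 4 (ATP6 among them, while TMSB10 gained one) and no filter on low values those of 6, while the block and a pseudocount of 0.1 took none.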

Other observations

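Several of the largest changes belonged to short noncoding RNAs whose deposited values jump between 0 and much higher values. SNORA61, a small nucleolar RNA, was at 49.2, 45.5 and 36.7 TPM at 6 h and listed at 0 in all 3 libraries at 24 h and in all 6 treated libraries. SNORA8 was at 73.7, 65.6 and 0 TPM at 6 h and listed at 0 at 24 h, and its change did not pass (limma adjusted p = 0.061). SGIP1, an endocytic protein gene, was listed at 0 in all 3 libraries at 6 h and at 5.84, 3.50 and 9.18 TPM at 24 h (limma adjusted p = 0.00021). These genes had a library at 0 and so stood outside the rule for the largest changes; they were chosen after their values were seen. Whether a value of 0 is a failed estimate cannot be told from TPM.

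Of 516 tested loci that the table names MSTRG, a form used for assembled transcripts, 120 rose and 74 fell, with a median change of 0.07. Over all genes tested 22.1% rose and 34.2% fell, and among all genes with a mean of 1 to 5 TPM 571 rose and 414 fell, with a median of 0.05. Of 1570 tested Ensembl genes without a symbol, 348 rose and 409 fell. Calls were fewer among low genes: 40.2% of the genes with a mean of 1 to 5 TPM passed, against 70.6% of those with 100 to 1000 TPM.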
